A study of Mus musculus with 7 samples.

Results

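Expression of 42 genes that drive or brake the cell cycle was measured in inner cell masses (ICMs) of mouse blastocyst-stage embryos. The embryos were given vehicle or 4 h of tamoxifen, which is meant to switch on ERK signalling through a construct they carry. The genes were chosen by symbol and comprise cyclins, cyclin-dependent kinases (CDKs) and their inhibitors, the retinoblastoma and E2F families, replication licensing factors and mitotic regulators. They are 42 of the 52636 genes in the table, and all 42 were among the 16248 genes that passed the expression filter and were tested. By role, 22 act in G1 or at the G1/S transition, 7 in S phase and 13 in G2 or mitosis. The rule that picks them uses symbols alone, but the list was chosen with earlier results of these data known.

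All embryos carried the Sox2Cre;CRAFR26 genotype, in which a Cre recombinase under Sox2 control is combined with a cRAF construct that activates ERK when tamoxifen is added. The mouse lines came from embryonic stem cell clones 4 and 8, injected into morulas. Embryos flushed at embryonic day 2.5 spent 24 h in culture with the FGF receptor inhibitor PD173074 at 250 nM, so the vehicle group carried both the construct and the inhibitor. The tamoxifen group received 250 nM 4-hydroxytamoxifen (4OHT) for 4 h, and the vehicle group received ethanol for 4 h. Immunosurgery took off the outer trophectoderm, and 2 ng of RNA from 10 pooled ICMs went into each library. The vehicle libraries were clone4_1, clone4_2 and clone8_1, and the tamoxifen libraries were clone4_1, clone4_2, clone8_1 and clone8_2. Of the 4 vehicle samples collected 1 was discarded at quality control, so clone 8 had 1 vehicle library. Nothing in the labels says that the pools came from separate litters, and p-values here measure the spread between these pools.

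Progress through G1 is set by D-type cyclins with Cdk4 or Cdk6 and then by E-type cyclins with Cdk2, which phosphorylate the retinoblastoma proteins and release E2F transcription factors. E2F activity raises the genes of DNA replication, and cyclins A and B with Cdk1 then carry the cell into mitosis, which ends when the anaphase-promoting complex (APC/C) with Cdc20 destroys the B-type cyclins. ERK signalling is best known in this circuit as an inducer of Ccnd1 in somatic cells, whereas the cells of the early embryo divide quickly with a short G1.

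Total counts ran from 22981498 to 42294719 per library, and 19287 to 22641 genes were detected. Defining markers of the epiblast, the primitive endoderm and the trophectoderm, 8 genes each, were all present, with no marker at 0 counts in any library. The summed trophectoderm markers reached 6834 to 9628 CPM (each count relative to its library's total, TMM-scaled) in vehicle and 5452 to 8284 CPM in tamoxifen, against 1886 to 2273 CPM and 1853 to 2625 CPM for the epiblast markers. Primitive endoderm markers summed to 804 to 1104 CPM in vehicle and 842 to 978 CPM in tamoxifen. The keratins Krt8 and Krt18 had the highest trophectoderm counts, at 53871 to 154654 and 55505 to 166312 per library. Gata3 followed at 14083 to 39875, whereas Tfap2a was at 424 to 1290 and Eomes at 488 to 1208. Dab2, at 14766 to 33776 counts, likewise led the primitive endoderm list. Sums over genes of such unlike levels do not compare the lineages. Trophectoderm marker RNA was present in every ICM pool, but its share was not determined. In such pools, fewer cells of a type and less RNA per cell cannot be told apart.

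Replication and mitosis genes stood well above most G1 genes. Per kilobase of typical transcript, the median level over the 7 libraries was 102.3 CPM per kb across the S phase genes and 60.97 CPM per kb across the G2/M genes, against 3.06 CPM per kb for the G1 genes and 3.73 CPM per kb for all genes tested. Cdk4, the kinase partner of D-type cyclins, had the highest level of the 42 at 257.6 CPM per kb. It was followed by Cdc20 at 254.8, Ccnb1 at 239.3, Aurka at 218.3, Gmnn at 204.1 and Ccnd3 at 192.2 CPM per kb. At the other end were Ccnd1, E2f3, Cdk6, Ccnd2, E2f2 and Rbl2, and Rb1, the retinoblastoma gene, was lowest at 0.178 CPM per kb and 6 to 61 counts per library. Neighbours in this order had overlapping ranges over the 7 libraries, except that Rb1 lay below Rbl2 in every library.

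**Figure D1:**
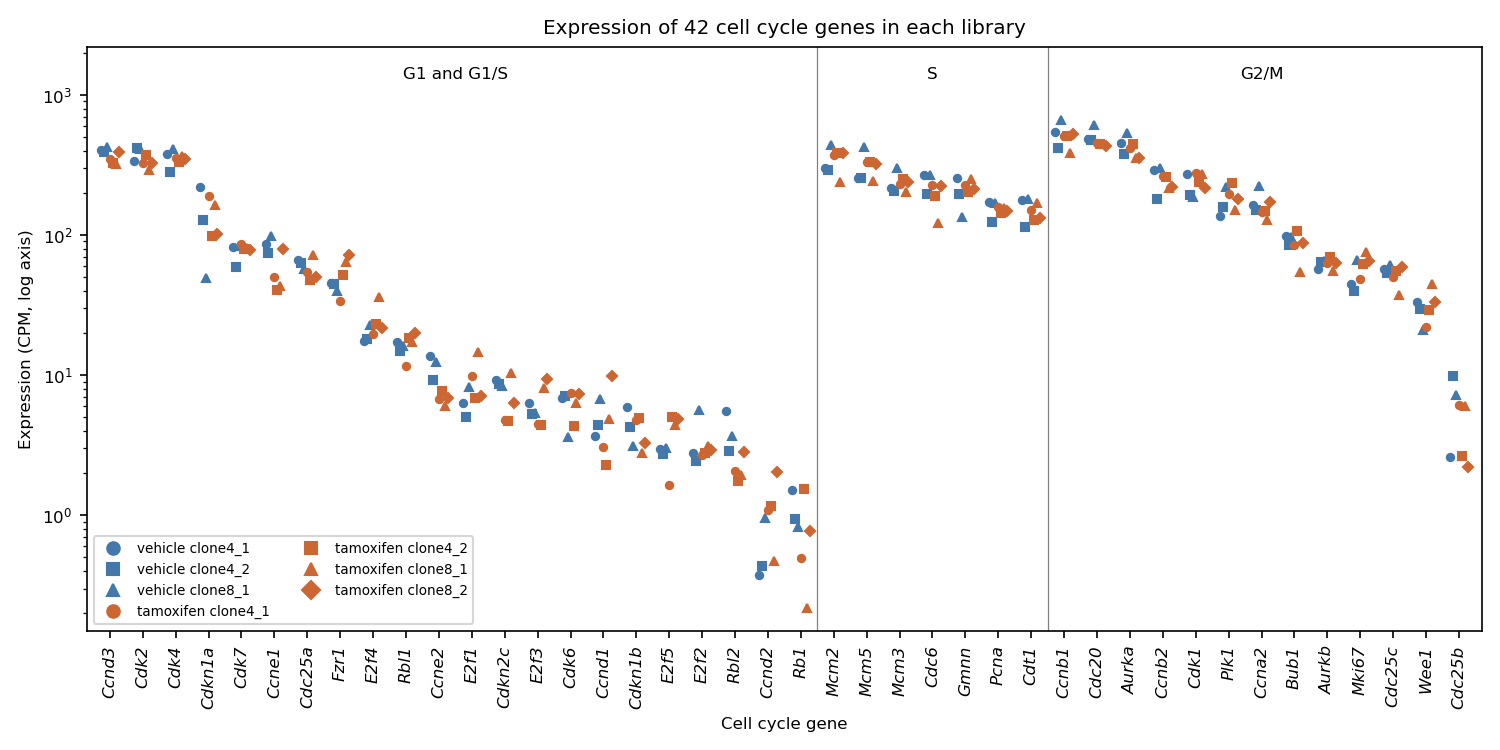
Expression of each of the 42 genes in each of 7 libraries (CPM on a log axis; not divided by transcript length), ordered within each phase by mean level. Blue symbols are the 3 vehicle and orange symbols the 4 tamoxifen libraries. G1 genes run from Ccnd3 down to Rb1, whereas all 7 S phase genes exceed 100 CPM. Ccnb1, Cdc20 and Aurka, of G2/M, have higher means than Ccnd3.

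In several families 1 member made up most of the expression. Ccnd3 was 97.6% to 99.3% of the D-type cyclin level per kb over the 7 libraries, and Cdk4 was 99.5% to 99.8% of the sum of Cdk4 and Cdk6. Ccne1 was 88.7% to 94.5% of the E-type cyclins, and Cdkn1a, which encodes p21, was 84.1% to 96.4% of the 3 CDK inhibitors. The balance was more even for the B-type cyclins, where Ccnb1 held 56.1% to 62.9%, and for the E2F factors, where the repressor E2f4 held 57.6% to 64.1%. Cdc25a held 33.0% to 51.2% of the CDC25 phosphatases. Ccnd3 and Cdk4 predominated in every library of both groups.

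The comparison of tamoxifen with vehicle asks whether 4 h of tamoxifen alters these genes. ERK activity itself was not measured in these libraries. No member was called at an adjusted p under 0.05 (edgeR quasi-likelihood, Benjamini-Hochberg over all genes), and neither was any other gene tested (0.0% called). The smallest adjusted p in that edgeR fit was 0.794, while 970 of the 16248 genes passed 0.05 before adjustment. DESeq2 called 4 genes, none of them a member. Without adjustment, 3 of 42 members had a p under 0.05, all lower after tamoxifen: Ccne1, Ccne2 and Rbl2. At that p 3.28% of the tested genes were lower and 2.69% higher, or 5.97% in all against 7.14% of the members. As all 3 members were lower, the like share is 3.28%. An excess was not tested and would rest on 3 genes. In 4 members every tamoxifen library lay below every vehicle library (Ccnd3, Ccne2, Rbl2 and Cdc20), and in 0 members every one lay above. Over all genes 4.74% were separated downward and 3.71% upward, or 8.45% in all against 9.52% of the members. As all 4 of these members were separated downward, the like share is 4.74%, and an excess was likewise not tested.

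The shifts centred near 0, with single estimates from -0.91 for Rbl2 to 1.02 for Ccnd2. The median log2 fold change was -0.044 over the members and 0.019 over all genes tested, with 24 members below 0 and 18 above. By phase it was 0.00030 for G1, -0.040 for S and -0.17 for G2/M. For 24 members the fold change was within 1 standard error (SE) of 0. Direction was kept in all alternative analyses by 20 members, 14 of them below 0 and 6 above, and 22 members changed sign in at least 1 of the 16 alternatives.

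**Figure D2:**
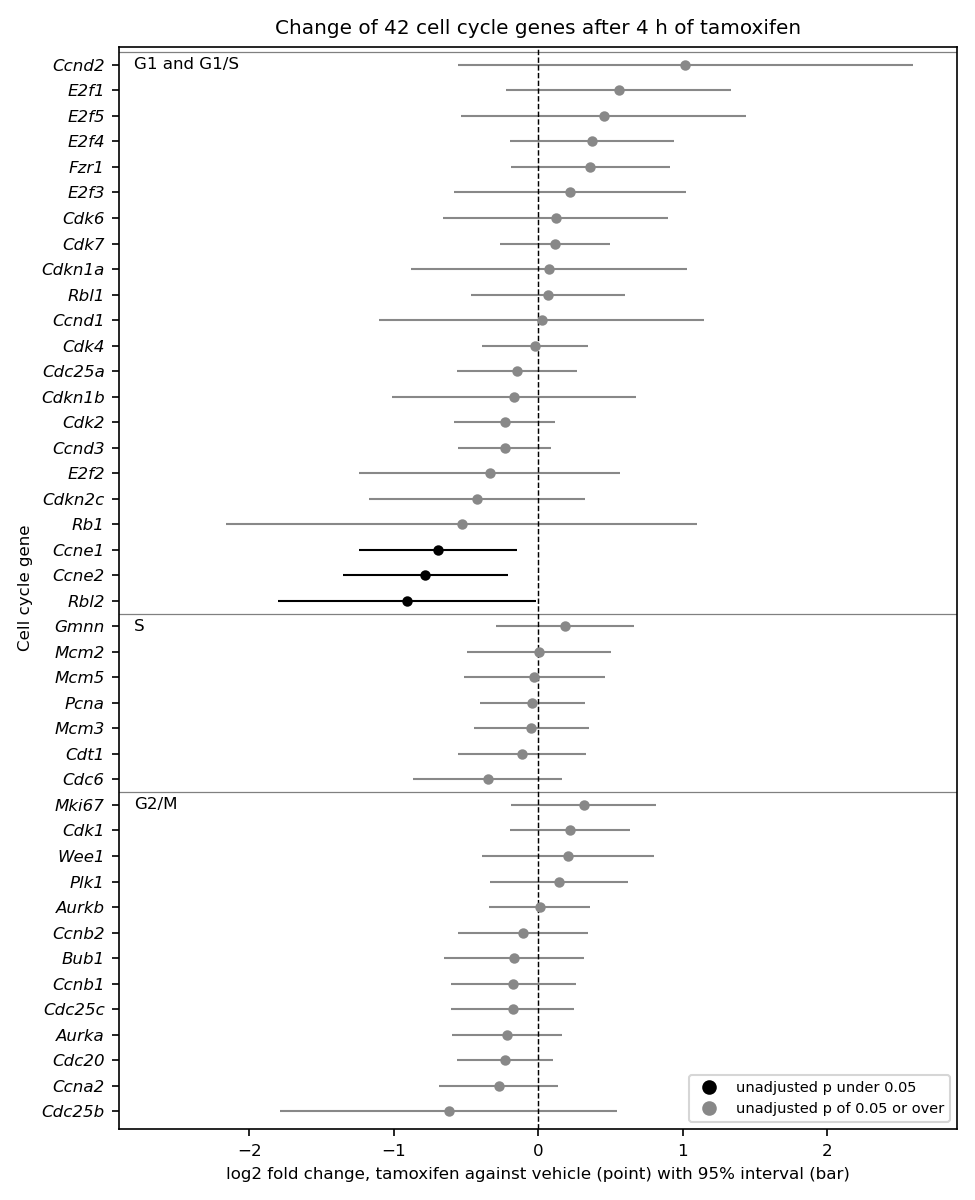
Log2 fold change of the 42 genes, tamoxifen against vehicle, with 95% intervals from edgeR's quasi-likelihood fit, sorted within each phase. The intervals of Ccne1, Ccne2 and Rbl2 (black) lie below 0, and those of the other 39 genes (grey) include 0.

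E-type cyclins, the activators of Cdk2 at the start of S phase, had lower means after tamoxifen, though neither passed the adjusted threshold. Ccne1 (ENSMUSG00000002068; chr7:38097984-38107534, minus strand, GRCm38) was at 86.0, 73.9 and 98.8 CPM in vehicle clone4_1, clone4_2 and clone8_1, and at 49.8, 40.4, 43.3 and 79.8 CPM in tamoxifen clone4_1, clone4_2, clone8_1 and clone8_2. Its group means were 86.2 ± 12.4 CPM (SD, n = 3) and 53.4 ± 18.1 CPM (SD, n = 4). The libraries clone4_1, clone4_2 and clone8_1 of tamoxifen were below every vehicle library, and the groups overlapped only through tamoxifen clone8_2, which lay between vehicle clone4_2 and clone4_1. This gave a log2 fold change of -0.69 ± 0.25 (SE; edgeR quasi-likelihood, unadjusted p = 0.0182, Benjamini-Hochberg adjusted p = 0.794). Without tamoxifen clone8_2 it was -0.95 (adjusted p = 0.716, same edgeR test), and within clone 4 alone it was -0.83 (adjusted p = 0.55). The difference was smallest without both clone8_1 libraries, at -0.50 (unadjusted p = 0.102, adjusted p = 0.757, edgeR).

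Ccne2, the second E-type cyclin (ENSMUSG00000028212; chr4:11191351-11204779, plus strand), was expressed at a lower level. Vehicle libraries held 13.7, 9.19 and 12.5 CPM and tamoxifen libraries 6.73, 7.76, 6.07 and 6.92 CPM, in the order of libraries given above. The group means were 11.8 ± 2.34 CPM (SD, n = 3) and 6.87 ± 0.697 CPM (SD, n = 4). All 4 tamoxifen libraries were below all 3 vehicle libraries, and the spread within tamoxifen was the narrower. On the log2 scale Ccne2 differed by -0.78 ± 0.26 (SE; edgeR quasi-likelihood, unadjusted p = 0.0125, Benjamini-Hochberg adjusted p = 0.794). Ccne2 overlaps Ints8 on the other strand over 5622 bp of gene span, introns included, and the exonic part was not measured. The strand setting of the counting is not given in the sources used here, so reads from that stretch cannot be assigned to either gene.

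Both E-type cyclins were below 0 in each of the 16 alternatives. An unadjusted p under 0.05 was kept in 13 of them by Ccne1, with p up to 0.102, and in 14 by Ccne2, with p up to 0.0922. The 8 trophectoderm markers were also all below 0, with a median log2 fold change of -0.30 and an unadjusted p under 0.05 for Gata3 and Krt7, whereas the median was 0.50 over the 8 primitive endoderm markers and 0.41 over the 8 epiblast markers. The primitive endoderm list was mixed, with 6 markers above 0 and 2 below, as was the epiblast list, with 5 above and 3 below. At an unadjusted p under 0.05 Sox17 (2.58) and Lama1 (1.35), both of primitive endoderm, were higher, and no epiblast marker was. The part of these lists in the E-type cyclin values was not tested. Because Ccne1 was the most abundant member at that p, its promoter is printed, from 250 bases before to 50 bases after the start site (RefSeq, GRCm38.p6). Capitals in this and the following promoters mark matches to the motifs listed further on, and the Ccne1 window at chr7:38107441-38107740, minus strand, holds none of them.
Ccne1: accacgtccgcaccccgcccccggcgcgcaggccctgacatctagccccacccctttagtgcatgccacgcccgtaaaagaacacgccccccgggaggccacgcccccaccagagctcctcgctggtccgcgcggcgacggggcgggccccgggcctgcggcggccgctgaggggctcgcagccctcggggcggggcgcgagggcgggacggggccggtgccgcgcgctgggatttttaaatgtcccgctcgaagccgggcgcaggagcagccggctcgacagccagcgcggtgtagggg

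**Figure D3:**
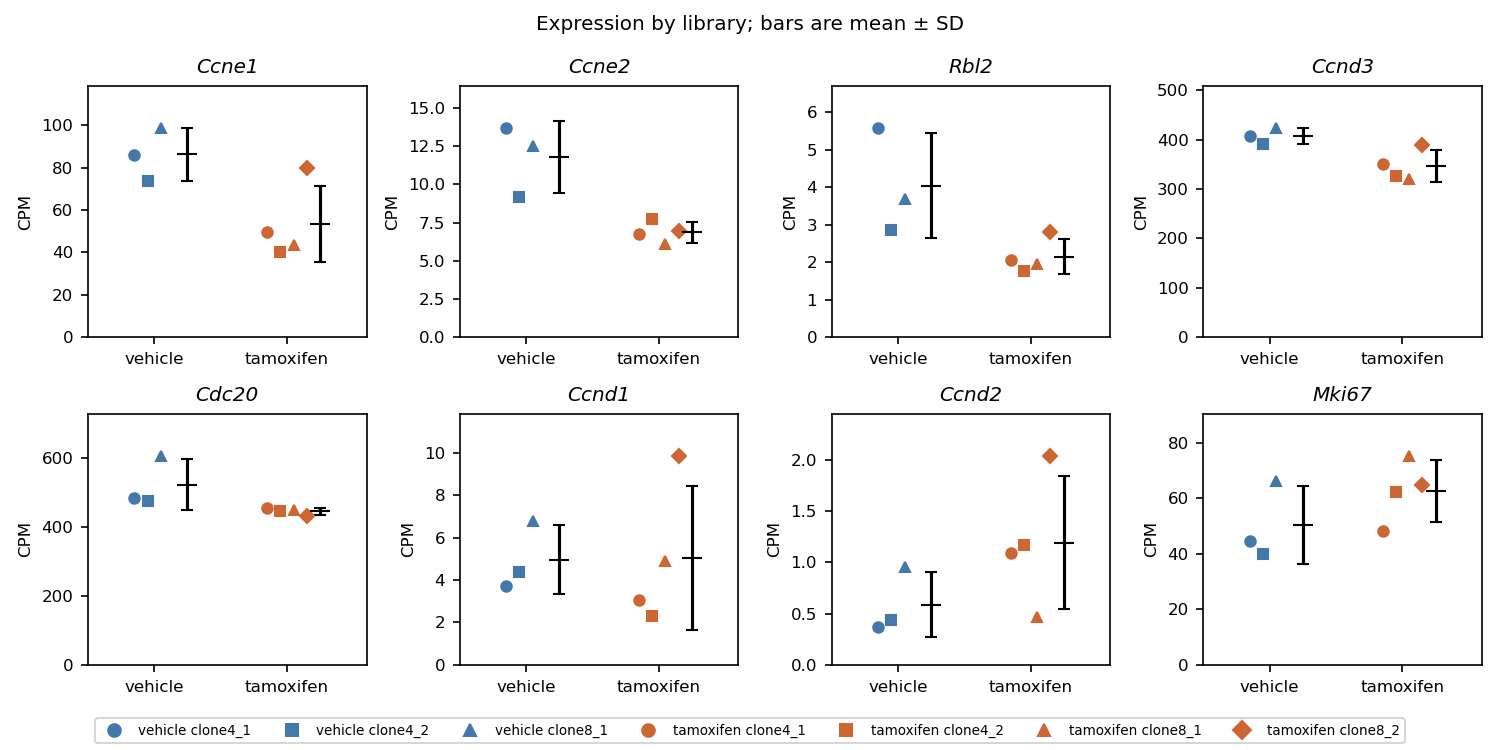
Expression (CPM) of 8 members in each library, with group mean and SD (black bars; n = 3 vehicle and 4 tamoxifen). Ccne2, Rbl2, Ccnd3 and Cdc20 show no overlap between groups; Ccne1 overlaps through tamoxifen clone8_2, Ccnd2 through tamoxifen clone8_1 and Mki67 through vehicle clone8_1, and the groups of Ccnd1 are mixed.

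The D-type cyclins, which link mitogen signals to Cdk4 and Cdk6, showed no common direction. Ccnd1 was at 3.70, 4.39 and 6.77 CPM in the vehicle libraries and at 3.08, 2.28, 4.88 and 9.86 CPM in the tamoxifen libraries. Tamoxifen held both the lowest and the highest library, and in each group the clone 8 libraries were above the clone 4 libraries. For Ccnd1 the log2 fold change was 0.024 ± 0.51 (SE) with a 95% interval from -1.10 to 1.15. Changes of either sign within those bounds were therefore not excluded. With clone as a term it was -0.31, and within clone 4 it was -0.60.

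Ccnd2 was near the limit of detection, with 13 to 84 counts per library. Its vehicle libraries were at 0.372, 0.436 and 0.950 CPM and its tamoxifen libraries at 1.09, 1.16, 0.469 and 2.04 CPM. Tamoxifen clone8_1 lay among the vehicle libraries, and the other 3 tamoxifen libraries were above all of them. Its log2 fold change was 1.02 ± 0.71 (SE; interval -0.55 to 2.59; edgeR, Benjamini-Hochberg adjusted p = 0.803).

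Ccnd3, the abundant D-type cyclin, stood at 408, 391 and 424 CPM in vehicle and at 351, 326, 319 and 390.1 CPM in tamoxifen. Every tamoxifen library was lower, though clone8_2 of tamoxifen was within 1 CPM of vehicle clone4_2. The difference was -0.23 ± 0.15 on the log2 scale (SE; interval -0.56 to 0.090; edgeR, Benjamini-Hochberg adjusted p = 0.803).

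Differences in the kinases themselves were small. Cdk4 had a log2 fold change of -0.023 ± 0.17 (SE), Cdk6 of 0.12 ± 0.35, Cdk2 of -0.23 ± 0.16 and Cdk7, the kinase that activates other CDKs, of 0.12 ± 0.17. Among the inhibitors, Cdkn1b, which encodes p27, was at -0.17 ± 0.38 and Cdkn2c, which encodes p18 and blocks Cdk4 and Cdk6, at -0.42 ± 0.33. Cdkn2c was at 4.78 and 4.74 CPM in the clone 4 tamoxifen libraries against 9.30 and 8.72 CPM in their vehicle counterparts, whereas tamoxifen clone8_1 had the highest value of all at 10.4 CPM. Cdkn1a varied most between libraries, from 49.1 CPM in vehicle clone8_1 to 219 CPM in vehicle clone4_1, and its log2 fold change was 0.074 ± 0.43 (SE).

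Of the retinoblastoma family, which holds E2F factors in check, Rbl2 (p130; ENSMUSG00000031666; chr8:91070057-91123844, plus strand) had a lower mean after tamoxifen, also short of the adjusted threshold. It was at 5.58, 2.87 and 3.68 CPM in vehicle and at 2.06, 1.77, 1.95 and 2.82 CPM in tamoxifen. No tamoxifen library reached a vehicle library, but tamoxifen clone8_2 came close to vehicle clone4_2. With 41 to 225 counts per library, the log2 fold change was -0.91 ± 0.40 (SE; edgeR quasi-likelihood, unadjusted p = 0.0463, Benjamini-Hochberg adjusted p = 0.794). The unadjusted p stayed under 0.05 in 6 of 16 alternatives and reached 0.189. Rbl2 overlaps Aktip on the other strand over 12061 bp of gene span, introns included. The exonic part of that stretch was not measured, and the origin of reads from it is undetermined here.

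Rbl1 (p107) was the most abundant of the family and had a log2 fold change of 0.066 ± 0.24 (SE), while Rb1 was at -0.53 ± 0.73. Rbl1 made up 70.3%, 79.4% and 77.8% of the family's level per kb in the vehicle libraries and 81.7%, 84.3%, 88.7% and 84.6% in the tamoxifen libraries, without overlap. That share was examined after the fold changes were seen, and it contains the Rbl2 difference. The Rbl2 promoter is printed because Rbl2 had the lowest fold change of the 42, and its capitals mark a TTTGAA match on the other strand, read as TTCAAA (chr8:91069807-91070106, plus strand).
Rbl2: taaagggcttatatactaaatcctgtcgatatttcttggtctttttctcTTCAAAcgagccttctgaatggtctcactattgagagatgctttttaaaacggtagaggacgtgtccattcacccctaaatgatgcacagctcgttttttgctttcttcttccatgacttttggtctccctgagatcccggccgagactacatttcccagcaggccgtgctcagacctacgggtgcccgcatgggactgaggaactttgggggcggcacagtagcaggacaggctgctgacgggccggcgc

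Among the E2F factors, E2f1, an activator of replication genes, had a log2 fold change of 0.56 ± 0.35 (SE), E2f4 of 0.37 ± 0.25, E2f5 of 0.45 ± 0.44 and E2f3 of 0.22 ± 0.36. E2f2 was the exception below 0, at -0.34 ± 0.41. Thus 4 of the 5 were above 0 and none had an unadjusted p under 0.05. E2f1 ran from 5.01 to 8.24 CPM in vehicle and from 6.85 to 14.7 CPM in tamoxifen, with tamoxifen clone8_1 the highest. Cdc25a, a phosphatase that activates Cdk2, was at -0.15 ± 0.19. Fzr1, the APC/C activator of G1, was at 0.36 ± 0.25, with tamoxifen clone4_1 the lowest library and the other 3 tamoxifen libraries the highest.

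S phase genes showed no shared direction. Log2 fold changes lay between -0.35 ± 0.23 (SE) for Cdc6, which loads the MCM helicase, and 0.19 ± 0.22 for Gmnn, which encodes geminin, the inhibitor of Cdt1. Mcm2, Mcm3 and Mcm5, subunits of that helicase, were at 0.0080 ± 0.22, -0.047 ± 0.18 and -0.025 ± 0.22. Cdt1, the second loading factor, was at -0.11 ± 0.20, and Pcna, the sliding clamp, at -0.040 ± 0.16. Cdt1 shares its strand with an annotated read-through gene, Gm20388, over 5540 bp of gene span, introns included. Its counts are uncertain to an extent that was not measured.

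Behind the small MCM averages lay a wide spread between libraries. Mcm5 was at 254, 255 and 426 CPM in vehicle and at 331, 332, 242 and 320.3 CPM in tamoxifen. The clone8_1 libraries were at opposite ends, highest in vehicle and lowest in tamoxifen, and Mcm2 showed the same order at 441 and 238 CPM. Without both clone8_1 libraries the log2 fold change of Mcm5 was 0.36 and that of Mcm2 0.36, with an adjusted p (edgeR, Benjamini-Hochberg) of 0.594 for each. The Mcm5 promoter (chr8:75109259-75109558, plus strand) is printed as an example of E2F letters in a replication gene and was chosen after its matches were seen. Capitals mark TTTCGCGC, which overlaps by 4 bases a TTTGGCGC on the other strand, and 3 CCAAT matches.
Mcm5: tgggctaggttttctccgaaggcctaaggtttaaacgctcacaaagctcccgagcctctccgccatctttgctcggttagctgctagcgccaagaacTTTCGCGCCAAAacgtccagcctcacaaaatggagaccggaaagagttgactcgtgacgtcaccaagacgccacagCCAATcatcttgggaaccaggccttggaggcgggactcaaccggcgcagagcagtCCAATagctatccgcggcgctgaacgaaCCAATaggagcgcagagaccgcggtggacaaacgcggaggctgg

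Among the G2/M genes, Cdc20, which directs the APC/C to the B-type cyclins, was the one without overlap between groups. Its vehicle libraries were at 486, 475 and 607 CPM and its tamoxifen libraries at 457, 446, 449 and 433 CPM. All tamoxifen libraries were below all vehicle libraries, and the tamoxifen libraries were close together. A log2 fold change of -0.23 ± 0.15 (SE) resulted (edgeR, Benjamini-Hochberg adjusted p = 0.803). The Cdc20 promoter (chr4:118437294-118437593, minus strand) is shown for that reason, and its capitals mark 2 CCAAT matches with a TTTGAA between them.
Cdc20: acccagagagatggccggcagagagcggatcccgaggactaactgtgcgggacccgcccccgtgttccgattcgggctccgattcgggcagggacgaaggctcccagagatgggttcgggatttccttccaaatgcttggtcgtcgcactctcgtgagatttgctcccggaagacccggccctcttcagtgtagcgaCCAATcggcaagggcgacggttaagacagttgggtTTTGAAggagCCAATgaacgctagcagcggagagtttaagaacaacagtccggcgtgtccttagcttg

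Mki67, the proliferation marker Ki-67, was at 44.8, 40.1 and 66.3 CPM in vehicle and at 48.4, 62.4, 75.4 and 65.0 CPM in tamoxifen. The groups overlapped through vehicle clone8_1, and the clone8_1 library was the highest in each. Mki67 differed by 0.32 ± 0.23 on the log2 scale (SE; edgeR, Benjamini-Hochberg adjusted p = 0.803) and was above 0 in each of the 16 alternatives.

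Cyclins of G2 and mitosis were slightly below 0, with Ccna2 at -0.27 ± 0.19 (SE), Ccnb1 at -0.17 ± 0.19 and Ccnb2 at -0.11 ± 0.20. Cdk1, their kinase partner, was at 0.22 ± 0.19 and Wee1, the kinase that inhibits Cdk1, at 0.21 ± 0.27. The opposing phosphatases were below 0, with Cdc25c at -0.18 ± 0.19 and Cdc25b, at 61 to 315 counts per library, at -0.62 ± 0.53. Of the mitotic kinases, Aurka was at -0.21 ± 0.17, Bub1, of the spindle checkpoint, at -0.17 ± 0.22, Aurkb at 0.010 ± 0.16 and Plk1 at 0.15 ± 0.21. None of these had an unadjusted p under 0.05.

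**Figure D4:**
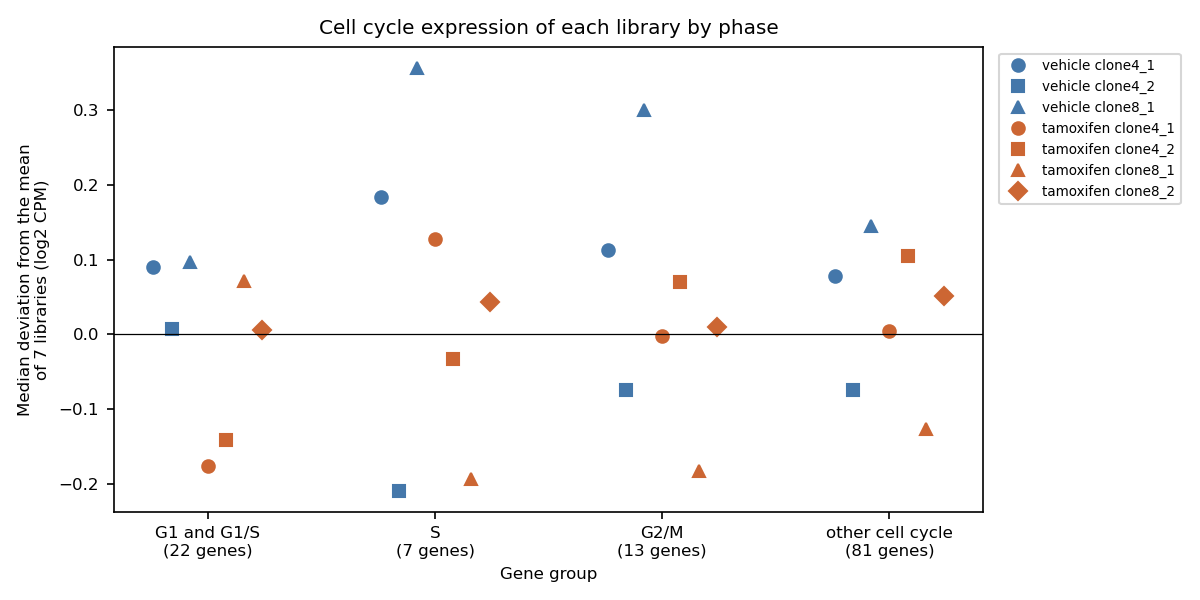
Median over the genes of each group of the deviation of a library from the mean of the 7 libraries (log2 CPM), for the G1, S and G2/M members and for 81 other cell cycle genes. Vehicle clone8_1 is the highest library for S and G2/M genes (0.36 and 0.30), and tamoxifen clone8_1 is at -0.19 and -0.18.

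Promoter windows of 300 bases were found for 31 of the 42 members (RefSeq, GRCm38.p6) and searched on both strands for letters bound by cell cycle regulators. The searches covered 4 E2F-type strings (TTTCCCGC, TTTGGCGC, TTTCGCGC and TTTGCCGC), the cell cycle homology region TTTGAA, and CCAAT; in the printed windows matches overlap only between the E2F strings of Mcm5. E2F letters occurred in 4 of 6 S phase, 5 of 16 G1 and 1 of 9 G2/M genes, against 2.6% of all genes in the promoter table, counted in the same way, and 2.26% of its promoters. TTTGAA occurred in 6 of 9 G2/M, 3 of 16 G1 and 1 of 6 S phase genes, against 20.2% of all genes and 17.9% of promoters. CCAAT was in 9 of 9 G2/M, 8 of 16 G1 and 4 of 6 S phase genes, against 41.1% of all genes and 37.4% of promoters. The Cdk1 promoter (chr10:69352863-69353162, minus strand), chosen after its matches were seen, shows all 3 motifs: 1 TTTCGCGC, 2 TTTGAA and 3 CCAAT, the last on the other strand and so read as ATTGG. These matches are letters in a window and not measured binding.
Cdk1: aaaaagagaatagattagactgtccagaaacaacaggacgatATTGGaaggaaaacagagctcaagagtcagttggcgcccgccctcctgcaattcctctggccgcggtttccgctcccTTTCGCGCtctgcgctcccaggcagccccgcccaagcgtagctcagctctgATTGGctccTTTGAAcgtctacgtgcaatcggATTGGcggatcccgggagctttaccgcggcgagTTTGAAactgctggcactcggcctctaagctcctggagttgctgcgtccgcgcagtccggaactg

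Whether the response differed between the clones was tested by the interaction of clone and condition, which rests on 1 vehicle library of clone 8. No member was called at an adjusted p under 0.05, against 514 of 16248 genes (3.16%). Mcm5 came nearest among the members, at an adjusted p of 0.123 (edgeR quasi-likelihood, Benjamini-Hochberg). Vehicle clone8_1 was the highest library for 14 of the 42 members and tamoxifen clone8_1 the lowest for 15. These counts were not made over all genes, so they do not set the members apart. Transcripts under 1000 nt were also low in vehicle clone8_1, with a median deviation of -1.29 log2 CPM against -0.038 to 0.22 in the other libraries. No member has a typical transcript that short, but Ccnd2 (1006 nt) and Gmnn (1045 nt) are just above the limit. Gmnn was lowest in vehicle clone8_1, at 134 CPM against 197 to 257 CPM in the other libraries. Ccnd2 went the other way, with vehicle clone8_1 the highest vehicle library. The part of this library's length deviation in the members' values, including the Gmnn fold change, was not tested. Leaving out vehicle clone8_1 alone gave 3 members at an unadjusted p under 0.05 (edgeR), which is 7.14% against 6.54% of all genes tested.

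Without both clone8_1 libraries, 8 members had an unadjusted p under 0.05, which is 19.0% of them against 7.25% of all genes tested. Higher were Mcm2, Mcm5, Mki67, Plk1 and Ccnd2, and lower were Ccne2, Cdc25a and Cdkn2c. The groups of 14 members then did not overlap, 8 higher and 6 lower, which is 33.3% of the members against 23.6% of all genes. In the clone 4 libraries alone, 19 members did not overlap, 45.2% against 39.5% of all genes. At an unadjusted p under 0.05 there were 5, or 11.9% against 7.87% of all genes, with Mcm2, Mcm5 and Plk1 higher and Ccne1 and Cdkn2c lower. None of these reached an adjusted p under 0.05.

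**Figure D5:**
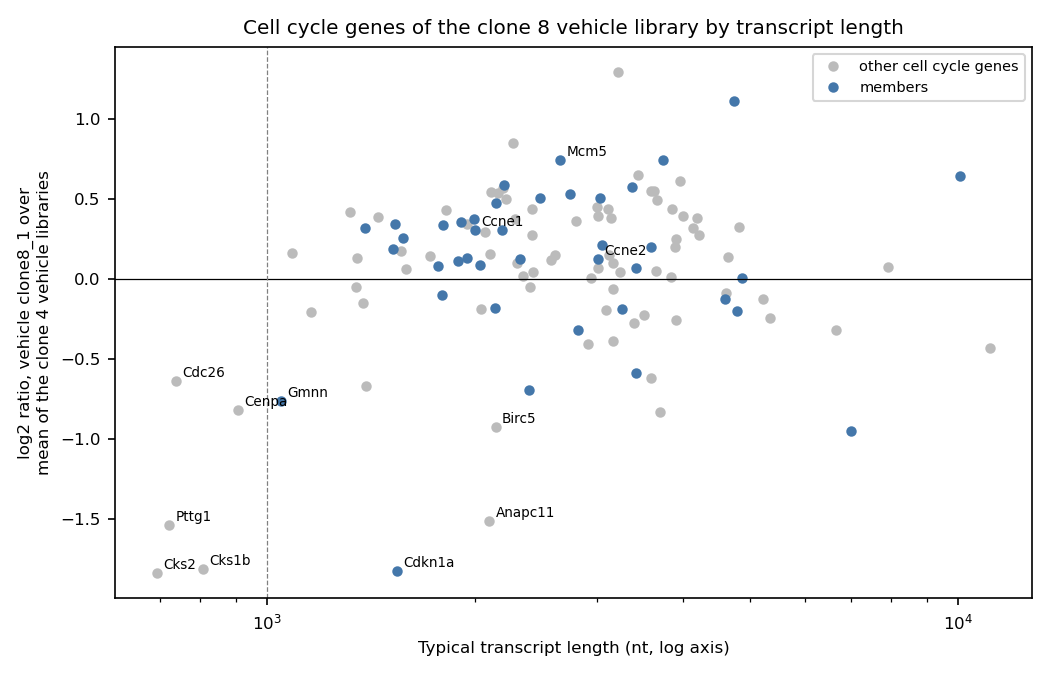
Log2 ratio of vehicle clone8_1 to the mean of the clone 4 vehicle libraries for members (blue) and other cell cycle genes (grey), against typical transcript length in nt (log axis). Genes at very low CPM in vehicle clone8_1 are not shown, among them the members Ccnd2 (0.950 CPM) and Rb1 (0.828 CPM). The genes left of the dashed line at 1000 nt, which include Cks1b, Cks2 and Pttg1, all lie below 0, and no member lies there.

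A further 84 cell cycle genes were listed as context, of which 81 passed the expression filter. None was called, 2 were higher and 3 lower at an unadjusted p under 0.05, and their median log2 fold change was -0.037. Pttg1, which encodes securin, was the largest of these at 1.19 ± 0.35 (SE; adjusted p = 0.794 by edgeR's test). It was at 299, 327 and 108 CPM in vehicle and at 566, 623, 636 and 404 CPM in tamoxifen, without overlap, and its transcript is among those under 1000 nt. Gins2, of the replicative helicase, was higher at 0.68 ± 0.25. It overlaps Gm20388 over 10672 bp and Gse1 over 2758 bp of gene span on the other strand, introns included. The exonic part was not measured. Lower were Rrm2, a subunit of ribonucleotide reductase, at -0.54 ± 0.22, Cdc27, a subunit of the APC/C, at -0.43 ± 0.16, and Mad2l1, of the spindle checkpoint, at -0.36 ± 0.16, each with an adjusted p of 0.794 by edgeR's test.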

How the data were processed

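RNA was measured by low-input RNA-seq in 7 libraries, 3 vehicle and 4 tamoxifen, grouped by the treatment label. The deposited table holds raw counts per Ensembl gene, 1 column per library, not normalised by the authors. Per the submitters' processing notes, bcl2fastq 2.19.1 and STAR 2.5.3a were used with the mm10 build; the counting program, strand setting and duplicate handling are not given in the sources used here. Without molecular identifiers, amplified reads are not independent molecules, and reads of overlapping genes can be misassigned.

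Gene IDs were matched to GENCODE M21 (GRCm38, the same build as mm10), 52489 of 52636. Counts were tested over all genes with edgeR 4.0.16 in R 4.3.3 (TMM factors, expression filter by group, quasi-likelihood test, Benjamini-Hochberg adjustment, called at adjusted p under 0.05); the scripts were tested on simulated data. The SE is the log2 fold change over the root of the F statistic. Levels are CPM, log2 values used a prior count of 2, and levels per kb used the median transcript length of each gene. Alternatives included DESeq2 1.42.0, other scaling factors and filters, clone or replicate terms, and leaving out libraries.

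The members and lists were chosen with earlier results of these data known. Values in every library are given for members with an unadjusted p under 0.05, without overlap between groups or called in the interaction, and for the D-type cyclins and Mki67; other cell cycle genes are named at an unadjusted p under 0.05. Mcm5, Mcm2, Cdkn2c, Cdkn1a, E2f1 and Gmnn library values, and the Cks1b, Cks2 and Anapc11 values, were added after they were seen.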

Additional observations from a re-analysis of the deposited data

Results flagged for a closer look

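Tamoxifen clone8_1 lay far below the other 3 tamoxifen libraries for 3 of the 42 members, judged by Dixon's criterion for 4 samples, which chance alone meets in about 1 in 20 groups. Mcm2 was at 238.4 CPM there, Mcm5 at 241.9 CPM and Ccnb1, the main mitotic cyclin, at 384.9 CPM, against 372 to 388, 320.3 to 332 and 506 to 524 CPM in the other tamoxifen libraries.

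Of the 81 other cell cycle genes tested, 3 were called in the interaction of clone and condition (edgeR, Benjamini-Hochberg), beside 3.16% of all genes. This interaction rests on 1 vehicle library of clone 8, so a difference between the clones and a property of that library cannot be told apart. The interaction was 1.93 on the log2 scale for Cks1b (adjusted p = 0.0148), 2.01 for Cks2 (adjusted p = 0.00728) and 1.65 for Anapc11 (adjusted p = 0.0307). Cks1b and Cks2 encode small CDK-binding proteins, and Anapc11 is the RING subunit of the APC/C. All 3 were at 55.1 to 83.8 CPM in vehicle clone8_1, the only vehicle library of clone 8, and above 149 CPM in every other library. Cks1b and Cks2 have typical transcripts under 1000 nt, and short transcripts were low in that library; the part of that in the 3 values was not tested.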

How the results depend on the processing

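No member was called under any of the 16 alternatives. Genes called over the table were 0 as reported, 4 with DESeq2 and 2 without both clone8_1 libraries. The 3 members at an unadjusted p under 0.05 became 1 with the replicate block, 8 without both clone8_1 libraries, 5 in clone 4 alone and 1 to 3 when each library was left out in turn. The share of all genes at that p, 5.97% as reported, was 4.44%, 7.25%, 7.87% and 3.91% to 8.97% in those settings. The 4 members without overlap became 14 without both clone8_1 libraries, 19 in clone 4 alone and 6 to 12 with 1 library left out. Over all genes the share without overlap, 8.45% as reported, was 23.6%, 39.5% and 11.6% to 21.4%; without vehicle clone4_1 it was 16.7% of the members against 21.4% of all genes, and without vehicle clone4_2 28.6% against 17.6%. The median log2 fold change of the members ranged from -0.16 to 0.0026 with 1 library left out, that of the G1 genes from -0.099 to 0.040 and was -0.18 in clone 4 alone, that of the S phase genes from -0.15 (without vehicle clone4_2) to 0.015 (without vehicle clone8_1), and that of the G2/M genes from -0.22 to -0.0045, with 0.012 without both clone8_1 libraries and 0.045 in clone 4 alone. The cause of these shifts was not tested, and neither was the part of the smaller number of libraries in them.

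Signs changed as follows, all of log2 fold changes. Mcm2 was at -0.0033 with DESeq2 and with RLE factors. With upper-quartile factors Ccnd1 was at -0.0014, Aurkb at -0.0031 and Mcm2 at -0.012. Cdk4 was at 0.00088 with a mean count of at least 50, and Ccnd1 at -0.31 with clone as a term. With the replicate block Ccnd1 was at -0.56, E2f3 at -0.061, Rbl1 at -0.055 and Mcm2 at -0.052. Without both clone8_1 libraries Gmnn was at -0.088, Cdk4 at 0.0675, Wee1 at -0.17, Ccnb2 at 0.063, Pcna at 0.0080, Cdkn1a at -0.42, Mcm5 at 0.36, Mcm3 at 0.20, E2f2 at 0.098, Bub1 at 0.012, Ccnb1 at 0.094 and Cdk6 at -0.13. In clone 4 alone Aurka was at 0.037, Wee1 at -0.31, Ccnb2 at 0.14, Ccnb1 at 0.076, Pcna at 0.016, Mcm5 at 0.37, Mcm3 at 0.19, Gmnn at -0.088, Fzr1 at -0.072, E2f3 at -0.40, Rbl1 at -0.11, Cdkn1a at -0.27, Cdk6 at -0.25, E2f2 at 0.061, Bub1 at 0.045, Ccnd1 at -0.60 and Cdk4 at 0.054.

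With 1 library left out at a time, values ranged from -0.067 to 0.064 for Aurkb, -0.31 to 0.0096 for Ccnb2, -0.53 to 0.31 for Ccnd1, -0.17 to 0.083 for Cdk4, -0.14 to 0.28 for Cdk6, -0.032 to 0.20 for Cdk7, -0.33 to 0.64 for Cdkn1a and -0.37 to 0.085 for Cdkn1b. They ranged from -0.55 to 0.13 for E2f2, -0.0029 to 0.36 for E2f3, -0.035 to 0.42 for Gmnn, -0.10 to 0.22 for Mcm2, -0.15 to 0.13 for Mcm3, -0.17 to 0.26 for Mcm5, -0.18 to 0.024 for Pcna, -0.012 to 0.36 for Plk1 and -0.029 to 0.19 for Rbl1.

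Same-numbered libraries did not deviate together from their group means (r of 0.0078, 0.021 and -0.068 over genes). Differently numbered libraries, some of the same clone, had r from -0.085 to 0.062. With so few libraries per group this check cannot tell whether the numbers pair the pools. The replicate block left 1 member at an unadjusted p under 0.05, Ccne1 at -0.95, and called none. DESeq2 gives no count of members without overlap. With 3 and 4 pools, precision was lowest for Ccnd2 (13 to 84 counts) and Rb1 (6 to 61 counts), and the intervals of Ccnd1 (-1.10 to 1.15) and Cdkn1a (-0.88 to 1.03) allow sizeable differences of either sign.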
